A study of Schizosaccharomyces japonicus with 6 samples.

Results

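Tj5 is one of the 10 families of long terminal repeat (LTR) retrotransposons, Tj1 to Tj10, that are counted as separate loci in the RNA-seq of the fission yeast S. japonicus. Its loci were taken by name, as every entry of the deposited table whose identifier starts with Tj5, and 30 of the 5152 loci in the table and of the 266 loci of Tj1 to Tj10 matched. They comprise 2 full-length elements, 23 partial elements and 5 solo LTRs. Polyadenylated RNA came from 3 wild-type libraries (strain EHB2742) and 3 libraries of the dcr1Δ* strain (EHB3054), all from cells grown in YES at 32 °C. Both strains are h- and carry the alleles mat-P2028, ura4-D3 and ade6(sj)-domE, and dcr1Δ* in addition carries dcr1-dis::natMX6 and the missense change R77W in mpe1. The mutant is a rare survivor recovered after extensive screening, and in it the effect of the mpe1 change cannot be told apart from that of the loss of dcr1. Every level given here is the authors' average over all 6 libraries of both strains. It has no error and no n of its own, because no value per library was used, and it says nothing of which strain a transcript came from. No comparison between the strains and no statistical test was therefore made, and levels of dcr1 RNA were not examined.

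An LTR retrotransposon is copied through an RNA that is transcribed from one repeat to the other, reverse transcribed and integrated at a new place. A full-length element keeps both repeats and the coding region for its capsid and enzymes, a partial element is a remnant of one, and a solo LTR is the repeat that is left when recombination between the repeats removes the rest. Tj5 belongs to the lineage related to the Ty3 element of budding yeast. In S. japonicus such elements lie mostly in heterochromatic clusters and give rise to small interfering RNAs, which Dicer (Dcr1) cuts from double-stranded RNA.

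Levels are CPM, counts scaled to library size, and were obtained from the deposited log2 values (logCPM). Levels given as CPM per kb were divided by the annotated length, whereas CPM and logCPM were not and also depend on length. The division made no allowance for reads that extend past the ends of a locus, which may matter more for short loci. The lowest level in the table, 0.0628 CPM, is shared by 15 loci and stands for loci without reads. If the default prior count of 2 was used in edgeR, this level would be that of a library averaging 31800000 counts, and a locus at 1.06 CPM would have had 31.9 counts per library on average. Both figures rest on that assumption, and the depth of the single libraries is unknown. All Tj1 to Tj10 loci together held 0.653% of the CPM. A read that mapped to several places was split between them, so levels of copies alike in sequence are not independent, and reads from copies missing in the assembly are counted on the copies it has. How reads over overlapping annotations were counted is not given in the sources used here.

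The transcripts counted on Tj5 were low, and a small number of short remnants held most of them. The 30 loci summed to 51.4 CPM. Their median logCPM was −1.67, against −0.43 for all 266 Tj1 to Tj10 loci and 6.03 for the 4886 other loci, most of which are genes. These logCPM values were not divided by length, and no length was used for the other loci. None of the 30 reached the median of the other loci. The highest, Tj5_partial_retrotransposon-1.1 at 16.3 CPM, was above 19.1% of the table in logCPM, and the lowest, Tj5_partial_retrotransposon-1.3, stood at the level of loci without reads. Per length the loci ran from 0.0597 to 30.2 CPM per kb, with a median of 0.615 CPM per kb. In all, 29 loci were more than 1.1 times above the level of loci without reads, but only 20 were above 2 times that level and 9 reached 1 CPM. Those 9 loci held 89.3% of the Tj5 CPM, whereas the 13 loci under 0.2 CPM held 2.75%. Because the average holds a prior count, the level of loci without reads is not 0, and per length it is highest for short loci. For Tj5_partial_retrotransposon-1.3, of 96 bases, it came to 0.654 CPM per kb, which gave that locus place 15 of 30 although it stood at the lowest level of the table. With the lowest level subtracted it placed 30.

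**Figure D1:**
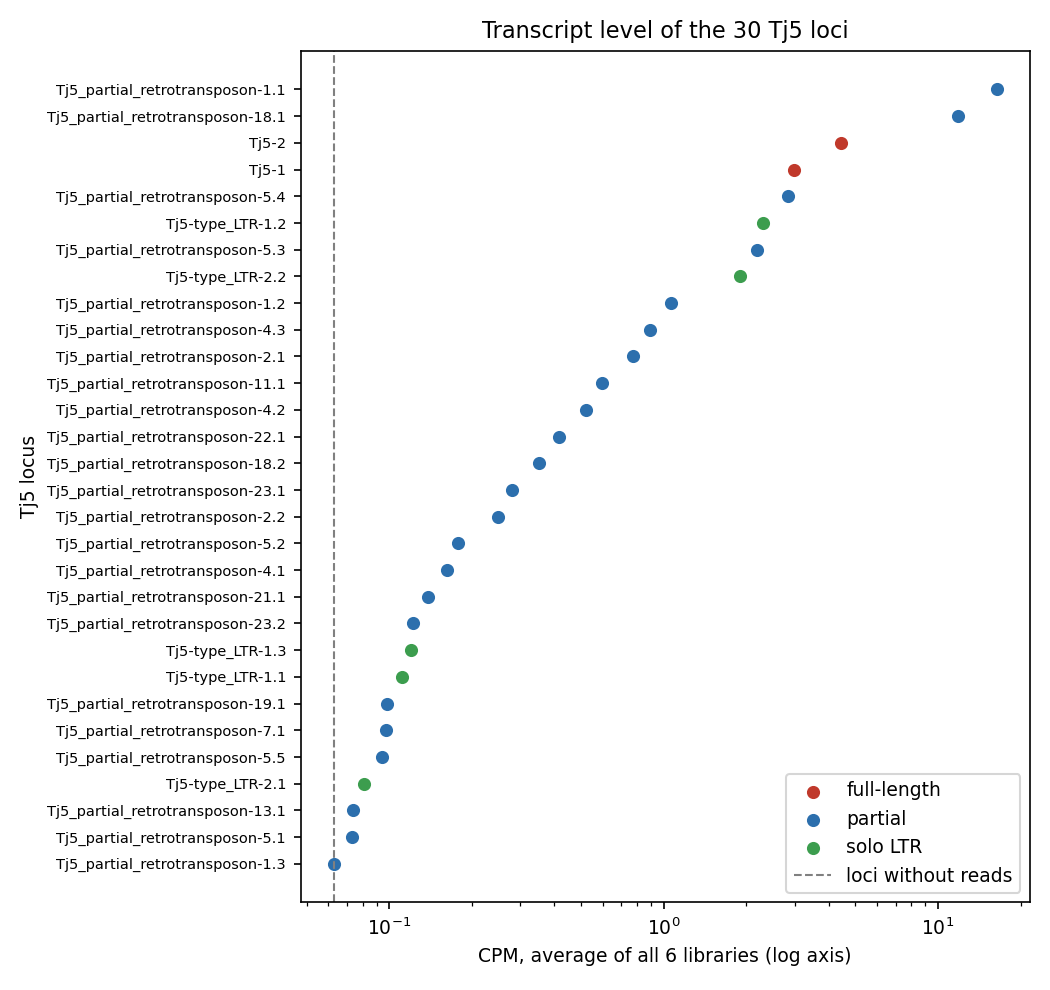
Level of each of the 30 Tj5 loci in CPM, averaged by the authors over all 6 libraries, on a log axis, with the colour giving the type of element and the dashed line the level of loci without reads (0.0628 CPM). Points have no error bars because no values per library were used, and the values are not divided by length. The 2 highest are partial elements, at 16.3 and 11.8 CPM, followed by both full-length elements.

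The family was led by 2 remnants of similar size. Tj5_partial_retrotransposon-1.1 lies on the plus strand of supercont5.1 from 1853107 to 1853648 in the SJ5 assembly (542 bases), and had a logCPM of 4.03. Tj5_partial_retrotransposon-18.1 lies on the plus strand of the short contig supercont5.18 from 746 to 1278 (533 bases), and had a logCPM of 3.57, or 11.8 CPM. Together they held 54.9% of the CPM of the family on 4.09% of its annotated length. Per length they were the highest as well, at 30.2 and 22.2 CPM per kb. Tj5_partial_retrotransposon-1.1 abuts Tj13 remnants of its own strand at both ends. The part of transcripts from neighbouring elements in these levels was not tested. The other Tj5 remnant on supercont5.18, Tj5_partial_retrotransposon-18.2, lies 2903 bases further on and on the same strand. It had 0.351 CPM, or 0.823 CPM per kb, so that levels per length on this contig differed 27.0-fold.

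The full-length elements were next in CPM but not per length. Tj5-2, on the plus strand of supercont5.4 from 52157 to 57975 (5819 bases), had 4.42 CPM. Tj5-1, on the minus strand of the same contig from 60041 to 65323 (5283 bases), had 2.99 CPM. Tj5-2 is thus 536 bases longer, and per length its level was 1.34 times that of Tj5-1, a difference that has no replicate check. These elements make up 42.3% of the annotated Tj5 length and held 14.4% of the CPM, and their levels of 0.760 and 0.567 CPM per kb stood in places 14 and 17 of the 30 loci, or 12 and 15 with the lowest level subtracted. Per length, Tj5_partial_retrotransposon-1.1 was 39.7 times higher than Tj5-2. Among the 13 full-length elements of Tj1 to Tj10, which ran from 0.0120 to 22.7 CPM per kb, Tj5-1 and Tj5-2 had the lowest values after Tj4-1. Tj10-1, at 0.846 CPM per kb, was close above them. Overlaps of annotated genes with the full-length elements were not examined, and how reads over such overlaps were counted is not known.

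The higher partial elements were alike in length. Of the 23 partial elements, 7 measure between 521 and 542 bases, while the nearest others measure 487 and 578 bases. This group was noticed after the values had been seen, and its comparison with the rest is a description. The 7 elements are Tj5_partial_retrotransposon-1.1, Tj5_partial_retrotransposon-1.2, Tj5_partial_retrotransposon-2.1, Tj5_partial_retrotransposon-4.2, Tj5_partial_retrotransposon-5.3, Tj5_partial_retrotransposon-5.4 and Tj5_partial_retrotransposon-18.1. Their median was 4.14 CPM per kb (range, 0.987 to 30.2), and they held 69.2% of the Tj5 CPM on 14.1% of the length. The median of the other 16 partial elements was 0.453 CPM per kb (0.0597 to 1.91). All 5 partial elements that reached 1 CPM belong to the group, namely Tj5_partial_retrotransposon-1.1, Tj5_partial_retrotransposon-18.1, Tj5_partial_retrotransposon-5.4 (2.83 CPM), Tj5_partial_retrotransposon-5.3 (2.18 CPM) and Tj5_partial_retrotransposon-1.2 (1.06 CPM). Within it, levels per length still differed 30.5-fold, with Tj5_partial_retrotransposon-4.2 the lowest at 0.987 CPM per kb and Tj5_partial_retrotransposon-2.1 next at 1.48 CPM per kb. The ranges overlap, since Tj5_partial_retrotransposon-4.3, of 468 bases, had 1.91 CPM per kb and Tj5_partial_retrotransposon-11.1 had 1.25 CPM per kb.

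The longest remnants were low. The 3 partial elements over 1000 bases, Tj5_partial_retrotransposon-4.1 (2013 bases), Tj5_partial_retrotransposon-23.1 (1565 bases) and Tj5_partial_retrotransposon-5.1 (1224 bases), had 0.163, 0.281 and 0.0730 CPM. Their levels of 0.0810, 0.180 and 0.0597 CPM per kb were among the 4 lowest per length, together with Tj5_partial_retrotransposon-23.2 (862 bases) at 0.142 CPM per kb. These places depend on the level of loci without reads, which per length is higher for short loci. With the lowest level subtracted the 3 elements placed 28, 22 and 29 of the 30 loci, and Tj5_partial_retrotransposon-23.2 placed 26. The 4 partial elements under 200 bases lay between 0.0628 and 0.0979 CPM, at or close to the level of loci without reads. Across all 30 loci, log2 length and logCPM had a Pearson's r of 0.34 and a Spearman's rho of 0.35, and across the 23 partial elements 0.20 and 0.22. These are correlations across loci of the same libraries that share split reads, and loci are not replicates.

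**Figure D2:**
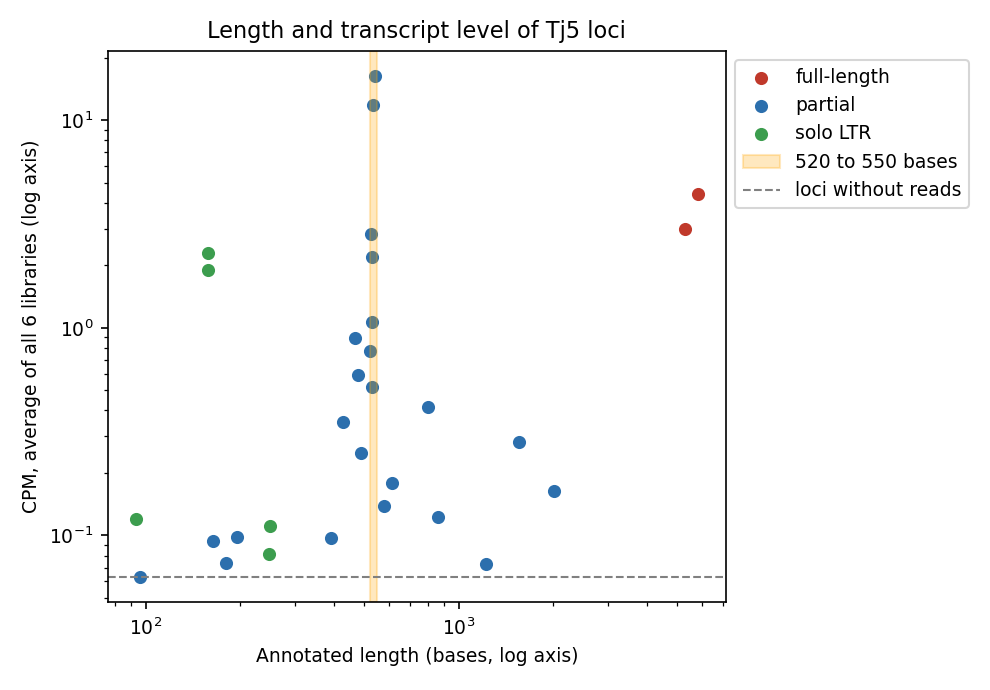
Annotated length of each Tj5 locus in bases against its level in CPM, averaged over all 6 libraries, both on log axes, with the colour giving the type of element, the shaded band the lengths from 520 to 550 bases and the dashed line the level of loci without reads. The 7 partial elements in the band run from 0.520 to 16.3 CPM, and the 3 partial elements over 1000 bases lie below all of them.

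The solo LTRs differed in level as well. Tj5-type_LTR-1.2, on the minus strand of supercont5.1 from 2001070 to 2001227, and Tj5-type_LTR-2.2, on the plus strand of supercont5.2 from 1827706 to 1827863, both measure 158 bases and had 2.30 and 1.90 CPM. With 14.6 and 11.999 CPM per kb they followed the 2 highest partial elements per length. For loci this short, reads that extend past the ends may raise the level per length, which was not examined. The other solo LTRs, Tj5-type_LTR-1.1 (249 bases), Tj5-type_LTR-2.1 (247 bases) and Tj5-type_LTR-1.3 (93 bases), had 0.447, 0.329 and 1.29 CPM per kb. In CPM all 3 were less than 2 times the level of loci without reads, which is 0.675 CPM per kb for the LTR of 93 bases. Both LTRs of 158 bases abut a Tj9 element on the opposite strand. Tj5-type_LTR-1.2 adjoins Tj9_partial_retrotransposon-1.2 (4.44 CPM per kb), and Tj5-type_LTR-2.2 adjoins the full-length Tj9-2 (6.44 CPM per kb). At its other end, Tj5-type_LTR-2.2 adjoins Tj18_partial_retrotransposon-2.2, on the same strand, whose level is not known here. Of the remaining LTRs, Tj5-type_LTR-2.1 lies between Tj8 remnants of 0.214 and 0.163 CPM per kb. The part of transcripts from the neighbours in these levels was not tested.

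The 30 loci lie on 12 contigs. Of them, 6 are on supercont5.1, 4 on supercont5.2, 5 on supercont5.4 and 5 on supercont5.5, and the other 10 on 8 shorter contigs. No Tj5 locus lies on supercont5.3, where 11 loci of the other counted families are. Plus and minus strands hold 15 loci each, but the 5 loci on supercont5.5 are all on the minus strand. The summed levels were 20.004 CPM on supercont5.1, 12.2 CPM on supercont5.18, 8.99 CPM on supercont5.4, 5.36 CPM on supercont5.5 and 2.998 CPM on supercont5.2. The first of these rested on Tj5_partial_retrotransposon-1.1 and the second on Tj5_partial_retrotransposon-18.1. On supercont5.5, Tj5_partial_retrotransposon-5.1 and Tj5_partial_retrotransposon-5.2 are 271 bases apart and had 0.0597 and 0.291 CPM per kb, whereas Tj5_partial_retrotransposon-5.4, 1616 bases from the nearer of them and on the same strand, had 5.38 CPM per kb. On supercont5.23, Tj5_partial_retrotransposon-23.1 and Tj5_partial_retrotransposon-23.2, which are 264 bases apart with a Tj10 LTR between them, had 0.180 and 0.142 CPM per kb.

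Tj5 loci are packed among other elements. Among the 396 elements of Tj1 to Tj21, 28 of the 30 loci had another element within 5 kb, and 25 had one within 10 bases of an end. At 10 loci this held at both ends. The exceptions beyond 5 kb were Tj5_partial_retrotransposon-1.3 and Tj5-type_LTR-1.3 on supercont5.1, whose nearest element was each other, 45986 bases away, and these had 0.0628 and 0.120 CPM. Annotated overlaps were between 1 and 6 bases long, at 10 loci. A Tj5 neighbour within 5 kb was found at 14 loci.

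The abutting neighbours differed in orientation by family. Counted at each Tj5 locus, there were 35 neighbours within 10 bases, of which 19 lie on the same strand as the Tj5 locus and 16 on the other. All 7 Tj3 neighbours, at 6 Tj5 loci, have the orientation of the Tj5 locus. So have all 3 Tj8 neighbours, which lie at Tj5_partial_retrotransposon-22.1 and on both sides of Tj5-type_LTR-2.1. Of the 7 Tj9 neighbours, 6 have the opposite orientation, the exception being Tj9_partial_retrotransposon-1.4 beside Tj5_partial_retrotransposon-1.2. Tj11 neighbours were split, with 3 on each strand. Tj11_partial_retrotransposon-2.1 counts on both sides of this split, since it lies between Tj5_partial_retrotransposon-2.1 and Tj5_partial_retrotransposon-2.2, which have opposite strands. Among the 114 abutting pairs of different families that do not involve Tj5, 55.3% share a strand. Beside families other than Tj5, the strand was shared in 12 of 24 pairs for Tj3, 14 of 26 for Tj8, 21 of 35 for Tj9 and 8 of 8 for Tj11. Pairs can be copies of one another and are not independent, and no test was made.

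The members of 521 to 542 bases have mostly such neighbours. Tj5_partial_retrotransposon-1.1 lies directly between Tj13_partial_retrotransposon-1.1 and Tj13_partial_retrotransposon-1.2, all on the plus strand. Tj5_partial_retrotransposon-5.3 lies between Tj11 remnants, Tj5_partial_retrotransposon-2.1 between a Tj9 and a Tj11 remnant, and Tj5_partial_retrotransposon-5.4 beside a Tj11 remnant. Tj5_partial_retrotransposon-1.2 and Tj5_partial_retrotransposon-4.2 adjoin Tj9 remnants of 27.5 and 4.85 CPM per kb, and had 2.02 and 0.987 CPM per kb themselves. The nearest element to Tj5_partial_retrotransposon-18.1, a Tj3 remnant with 0.0631 CPM, is 491 bases away. The table counts no element of Tj11 to Tj21 under its own name, and annotated genes inside them were not examined. Levels of those neighbours are therefore not known here.

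The full-length elements point towards each other in an array of elements on supercont5.4, with 2065 bases between them. Tj5-2 sits between Tj3_partial_retrotransposon-4.3 (922 bases, 0.531 CPM per kb) and Tj3_partial_retrotransposon-4.5 (468 bases, 0.475 CPM per kb), which in turn are bordered by Tj8_partial_retrotransposon-4.4 (1.80 CPM per kb) and Tj8_partial_retrotransposon-4.3 (4.37 CPM per kb). All of these are on the plus strand. Upstream of Tj5-1, on the minus strand, lie Tj3_partial_retrotransposon-4.4 (919 bases, 0.672 CPM per kb) and then Tj8_partial_retrotransposon-4.2 (0.498 CPM per kb), also on the minus strand. On its downstream side Tj5-1 is 59 bases from Tj8_partial_retrotransposon-4.6, a remnant of 375 bases on the plus strand with 83.8 CPM per kb. Both full-length elements thus have a Tj3 remnant of almost the same length and then a Tj8 remnant upstream, in their own orientation. Per length, both Tj3 remnants beside Tj5-2 stood below its 0.760 CPM per kb, the one beside Tj5-1 stood above its 0.567 CPM per kb, and Tj8_partial_retrotransposon-4.1, further upstream of Tj5-2, reached 21.0 CPM per kb.

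**Figure D3:**
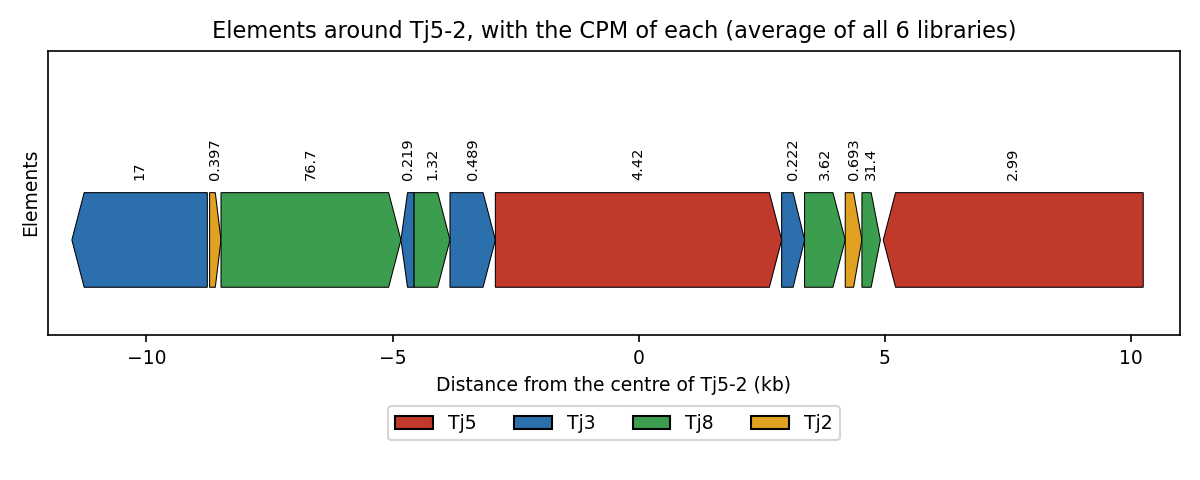
Map of the elements around Tj5-2, with the distance from its centre in kb on the horizontal axis, arrows pointing in the direction of the annotated strand, colours for families and the CPM of each locus (average of all 6 libraries) above it. Tj5-2 (4.42 CPM) is enclosed by Tj3 and then Tj8 remnants on its own strand, and Tj5-1 (2.99 CPM), to its right, points towards it.

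Beside the other families, Tj5 was in the lower part of the range. Its summed CPM was 0.785% of that of all Tj1 to Tj10 loci, or 2.07% when Tj7 was left out, since Tj7 alone held 62.0%. Over the summed length of its loci Tj5 had 1.96 CPM per kb, which placed it 7 of 10 families. Tj3 (35 loci), Tj8 (25 loci) and Tj10 (36 loci) are of the same lineage and have similar numbers of loci. They had 2.44, 11.99 and 0.520 CPM per kb. By the median locus the differences were smaller, at 0.615 CPM per kb for Tj5, 0.672 for Tj3, 1.35 for Tj8 and 0.363 for Tj10. These medians include the level of loci without reads, which per length is higher for short loci. Median lengths were 523.5 bases in Tj5, 765 in Tj3, 730 in Tj8 and 440 in Tj10. With the lowest level subtracted the Tj5 median was 0.497 CPM per kb, and no such median is given for the other families. The share of loci that reached 1 CPM was 30% in Tj5, 42.9% in Tj3, 52.0% in Tj8 and 11.1% in Tj10. A single locus carried 31.8% of the Tj5 CPM, against 30.5% in Tj10, 28.5% in Tj8 and 23.0% in Tj3. By element type, the median logCPM in Tj5 was 1.86 for full-length elements, −1.83 for partial elements and −3.06 for solo LTRs, and over all 190 partial elements and 63 solo LTRs of the families it was −0.01 and −2.72. The types differ in length, and per length the order in Tj5 was another one. Medians were 0.663 CPM per kb for full-length elements, 0.575 for partial elements and 1.29 for solo LTRs. The last is the value of Tj5-type_LTR-1.3, of 93 bases, which was less than 2 times the level of loci without reads. With the lowest level subtracted this LTR had 0.617 CPM per kb, between Tj5-1 (0.555) and Tj5-2 (0.749). The order of the medians thus depends on that level. Summed CPM over summed length was 0.668 CPM per kb for full-length elements, 2.77 for partial elements and 4.98 for solo LTRs. None of these differences was tested. Without Tj5_partial_retrotransposon-1.1 and Tj5_partial_retrotransposon-18.1, Tj5 summed to 23.2 CPM and placed 8 by CPM per kb.

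**Figure D4:**
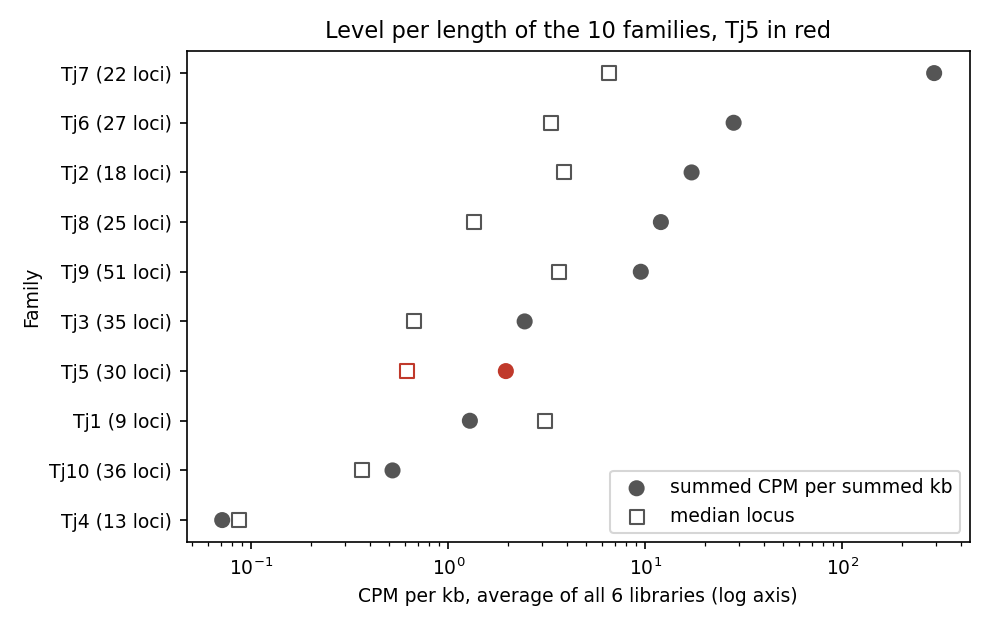
Level per length of the 10 families on a log axis, in CPM per kb averaged over all 6 libraries, as the summed CPM over the summed length of all loci of a family (filled circles) and as the median of its loci (open squares), with Tj5 in red. By summed values Tj5 stands at 1.96 CPM per kb, between Tj1 (1.28) and Tj3 (2.44), and no error bars are given because no values per library were used.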

How the data were processed

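Reads from 3 wild-type and 3 dcr1Δ* libraries (TruSeq stranded mRNA, paired-end) were processed by the authors with Trim Galore 0.4.3.1, aligned to SJ5 with STAR 2.7.2b and counted with featureCounts 2.0.1, with reads mapping to several places split into fractions, and compared in edgeR 3.34.0. Versions are those of the submitters' processing notes, and the study's methods name others for the last 2 tools. The deposited log2 value used here, logCPM, is the authors' average log2 CPM over all 6 libraries. The other columns hold the authors' own comparison of dcr1Δ* with wild-type (log2 fold change, F statistic, p-value and FDR) and were not used.

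CPM was taken as 2 to the power of logCPM. Positions and lengths came from the study's table of elements, whose starts were read as counted from 0. The RefSeq gene table names no contig, so overlaps with genes were not examined. No genome was used and no sequence is shown. The members, lists and groups were chosen with earlier results of these data known. Named loci were both full-length elements, those highest in CPM or CPM per kb, the highest solo LTR, those overlapping an element and neighbouring pairs, and others were named after their values were seen. The functions were tested on simulated data. Python 3.11.15, pandas 2.3.3, scipy 1.17.1 and matplotlib 3.10.9 were used.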

Additional observations from a re-analysis of the deposited data

How the results depend on the processing

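No paired analysis was possible because the values used are averages over all libraries, and for the same reason no replicate could be left out. Of 27 alternatives, 19 kept a value within 1.5 times of the reported one, or the same rank. Limiting the loci to a CPM of at least 1 gave 9 loci with a median logCPM of 1.502, since low loci are then dropped. Without Tj7 the Tj5 share of the CPM of all families was 2.07%. Counting only Tj5 neighbours within 5 kb left 14 loci. By median logCPM, Tj5 placed 8 of the 10 families. Leaving out the 2 highest loci was an alternative chosen after the data were examined. It gave a summed CPM of 23.2, a share of 32.0% on the full-length elements and a place of 8 by CPM per kb. Levels below about 2 times that of loci without reads rest on very low counts, so their order is uncertain.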
